A study of Mus musculus with 7 samples.

Results

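The 7 hippocampal mRNA libraries of the study were divided by how much choroid plexus transcript they held. The measure was the share of all counts of a library taken by Ttr, the gene for transthyretin, a carrier of thyroxine that the choroid plexus epithelium makes in large amounts. The classes were chosen by these measured shares: libraries with Ttr above 0.2% of their total were called rich, and those below it poor. By that rule 4 of the 7 libraries were rich (Control 2, NIHHL 1, NIHHL 3 and NIHHL 4) and 3 were poor (Control 1, Control 3 and NIHHL 2). The study set a mouse model of hidden hearing loss from noise (NIHHL, 4 libraries, 110 dB for 2 h) beside blank control mice (Control, 3 libraries), with hippocampus taken 1 month after induction in the study. Strain, sex and age were not given in the sources used here, and nothing in the labels says that each library came from its own mouse or how the hippocampi were dissected. The p-values therefore measure the spread between these libraries, which may in part be technical.

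The choroid plexus is a folded sheet of epithelial cells over a core of vessels and stroma that hangs in the brain ventricles and secretes cerebrospinal fluid. Its epithelium carries ion and water channels, carbonic anhydrases and solute carriers that move salt, water, folate, copper and lactate between blood and fluid, and it releases carrier proteins and growth factors. In rodents the plexus of the lateral ventricle lies along the fimbria of the hippocampus, where it can be included in or left out of a dissected piece. Ependymal cells, which line the ventricle wall beside it, bear motile cilia.

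Total counts ran from 14871376 to 24515146 per library, and 16290 to 16821 genes had at least 1 count. Markers of hippocampal neurons were present in every library at like levels in both classes: Snap25, a synaptic fusion protein, lay between 1160 and 1397 CPM (a gene's counts scaled to a common library total, here with trimmed mean of M-values factors), and Prox1, a factor of dentate granule cells, between 101 and 166. The libraries also differed in how their counts depended on transcript length. Over 8383 genes the Spearman correlation of a gene's deviation from its mean over libraries with its length was 0.45 in Control 1, -0.10 in Control 3 and 0.10 in NIHHL 2, the poor libraries. It was -0.58 in Control 2, -0.17 in NIHHL 1, -0.33 in NIHHL 3 and 0.52 in NIHHL 4, the rich ones. The first principal component of all genes, with 43.1% of the variance, ran from Control 1 (-25.2) through NIHHL 2 (-12.9), Control 3 (-6.87), NIHHL 4 (1.03) and NIHHL 3 (4.16) to NIHHL 1 (19.3) and Control 2 (20.6), the poor libraries all lying below the rich ones.

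Ttr took 0.00561% of the counts in Control 1, 0.0490% in NIHHL 2 and 0.129% in Control 3, and 0.386% in NIHHL 4, 0.439% in NIHHL 3, 0.638% in Control 2 and 0.788% in NIHHL 1. Control 3 and NIHHL 4 were the libraries nearest the threshold, one on each side. The exact 95% binomial interval of each share was narrow at this depth, for example 0.128 to 0.131% in Control 3 and 0.383 to 0.389% in NIHHL 4, and covers counting error only. These shares set the classes, so Ttr was given no test. The classes and the study's groups overlapped in part: 3 of 4 NIHHL and 1 of 3 Control libraries were rich (Fisher's exact test, two-sided, p = 0.486; these totals cannot give a p below 0.0286).

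The other markers named for the choroid plexus epithelium were lower in each poor library than in any rich one, although NIHHL 4 lay above NIHHL 3 for Enpp2 and Cldn2, against the order of their Ttr shares. Enpp2 encodes autotaxin, a secreted enzyme that makes lysophosphatidic acid. It stood at 186, 355 and 780 CPM in Control 1, NIHHL 2 and Control 3, and at 1964, 1599, 2048 and 3267 in NIHHL 4, NIHHL 3, Control 2 and NIHHL 1. In proportion, the lowest rich library was about as far above Control 3 as Control 3 was above NIHHL 2, and the classes did not overlap. The means were 2219 ± 725 CPM in the rich libraries (SD, n = 4) and 440.5 ± 306 in the poor ones (SD, n = 3), and the log2 fold change of the fitted model, rich minus poor, was 2.33. Folr1, folate receptor alpha, which carries folate into the cerebrospinal fluid, measured 1.42, 5.11 and 9.20 CPM in the poor libraries and 34.4, 36.8, 49.0 and 58.0 in the rich ones, in that same order. Cldn2, a pore-forming claudin of the epithelium's tight junctions, measured 0.674, 2.36 and 7.07 CPM against 29.7, 24.8, 32.1 and 49.8. For all 3 markers Control 1 was lowest and NIHHL 1 highest, and the markers were above 0 in each poor library. In bulk samples, fewer choroid plexus cells and less RNA from each such cell cannot be told apart.

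**Figure D1:**
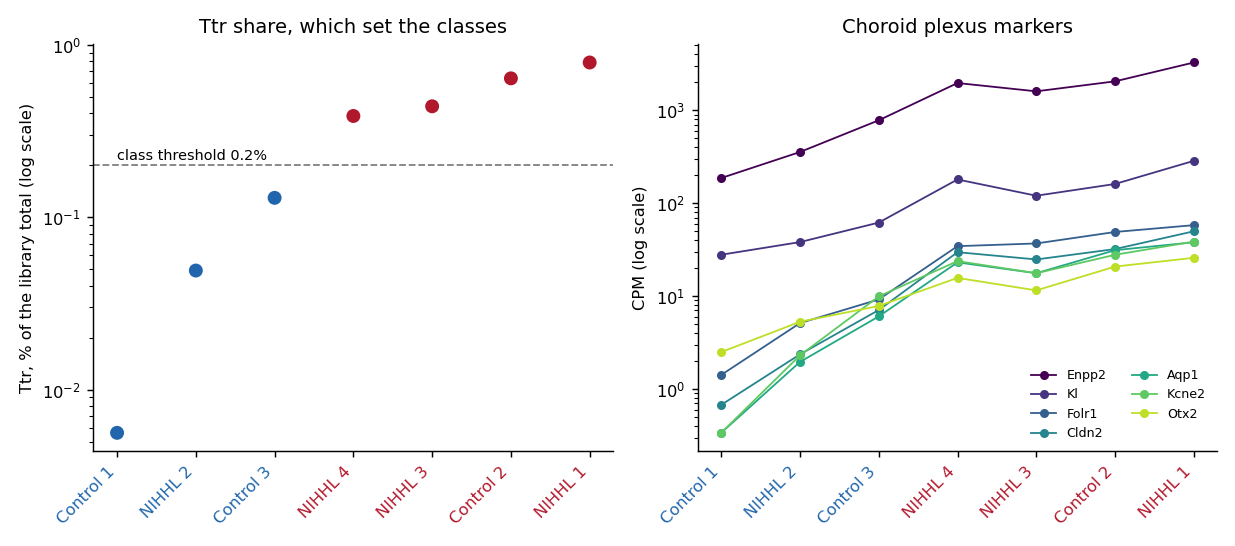
Left, Ttr as a percent of each library's counts on a log scale, with the class threshold of 0.2% as a dashed line; right, CPM of 7 choroid plexus markers on a log scale. Each point is 1 library, ordered by Ttr share on the horizontal axis, with poor libraries in blue and rich libraries in red; each of the 7 markers is lower in all 3 poor libraries than in any rich one.

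The markers that best show the finding can be set beside their promoters. The 3 sequences below are RefSeq promoters on GRCm38.p6, each 250 bases before to 50 after the start of the gene, read 5′ to 3′ on the gene's strand: Car14 (chr3:95904636-95904935, minus strand), Car12 (chr9:66713436-66713735, plus strand) and Cldn2 (chrX:139800558-139800857, plus strand). Car14 and Car12 ranked high in the comparison described next, and Cldn2 is a defining marker. Capitals mark the letters TAATCC, the core recognised by Otx2, a homeodomain factor of the choroid plexus. Promoters were read for Cldn2 and for the choroid plexus genes that passed the test described next, apart from Col9a3. Col9a3 and the defining markers Enpp2 and Folr1 had no entry in the promoter table. Of the promoters read, only that of Car14 held these letters or their reverse complement. Rdh5 ranked above Car14, and its promoter, not shown, did not hold them.
Car14: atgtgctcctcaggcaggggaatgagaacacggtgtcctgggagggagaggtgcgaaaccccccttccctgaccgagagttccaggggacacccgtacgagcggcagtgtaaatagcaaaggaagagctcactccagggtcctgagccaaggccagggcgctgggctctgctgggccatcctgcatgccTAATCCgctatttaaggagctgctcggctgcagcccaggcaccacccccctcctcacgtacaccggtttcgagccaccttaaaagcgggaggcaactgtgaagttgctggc
Car12: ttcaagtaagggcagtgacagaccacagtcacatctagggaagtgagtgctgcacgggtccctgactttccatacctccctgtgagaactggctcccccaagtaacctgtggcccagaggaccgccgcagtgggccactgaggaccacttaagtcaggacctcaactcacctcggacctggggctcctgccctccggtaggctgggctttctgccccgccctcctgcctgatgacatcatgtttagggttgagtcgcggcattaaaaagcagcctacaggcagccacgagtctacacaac
Cldn2: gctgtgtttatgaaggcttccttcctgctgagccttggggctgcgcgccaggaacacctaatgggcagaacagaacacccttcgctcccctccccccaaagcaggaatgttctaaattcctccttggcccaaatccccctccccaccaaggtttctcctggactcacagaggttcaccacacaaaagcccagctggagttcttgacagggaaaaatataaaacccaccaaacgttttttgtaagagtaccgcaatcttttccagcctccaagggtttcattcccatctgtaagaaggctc
Of 75 choroid plexus genes in 4 lists, 59 had an entry in the promoter table, with 80 promoters in all. TAATCC or its reverse complement GGATTA stood in 6 of the 80 (7.5%), and in 2320 of 32851 promoters of the same length (7.06%), so the promoters of these genes held the letters about as often as all promoters did. A match is a description of letters, and its absence from the other sequences says only that these letters are not in the window.

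Across all genes, those that separated rich from poor libraries most clearly were nearly all higher in the rich ones. Of 14416 genes tested apart from Ttr, 58 passed an adjusted p of 0.05 by edgeR's quasi-likelihood test with Benjamini-Hochberg adjustment (0.402%), 57 of them higher in the rich libraries (0.395%) and 1 lower (0.00694%). At an unadjusted p under 0.05 there were 662 higher and 295 lower. The median log2 fold change over all genes was 0.0018. The 57 genes that were higher ran from 0.56 to 4.42 on the log2 scale, and all 58 separated the classes without overlap, which 4.85% of all genes did upwards and 2.68% downwards. Of the 58, 42 reached the level of the count filter in all 3 poor libraries and 16 passed it only with the rich ones, so the count of 58 includes genes that could enter only by being higher there; over all genes tested these numbers were 13890 and 526. The count rests on single libraries: it was 0 without Control 1, 1 without Control 2, 1 without NIHHL 2, 11 without NIHHL 1 and 101 without NIHHL 3, and 8 with the study's group as a term beside the class. Shorter transcripts tended to be higher in the rich libraries (Spearman's rho of log2 fold change with length, -0.36 across genes, which are not independent replicates), and 76 genes were called when a length offset was fitted.

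**Figure D2:**
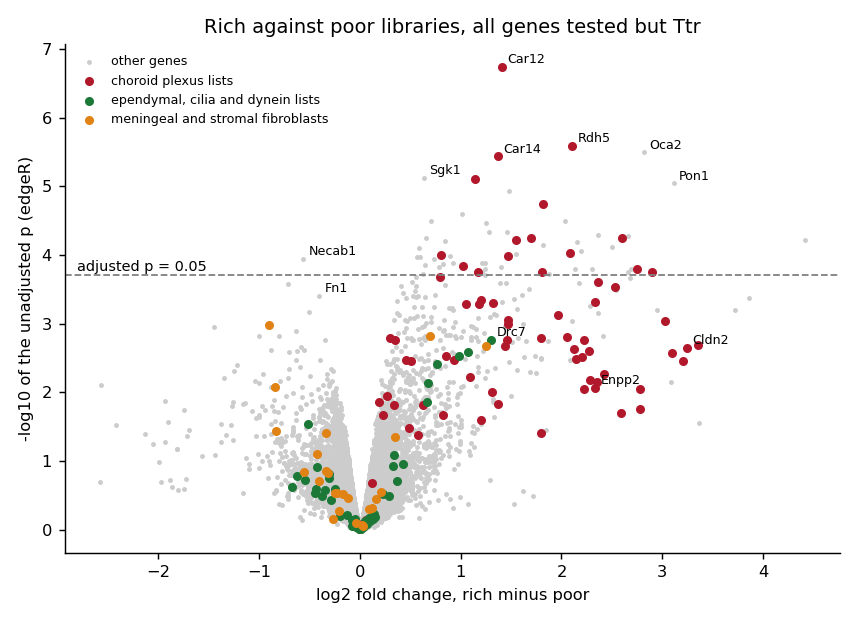
Log2 fold change, rich minus poor, on the horizontal axis against -log10 of the unadjusted edgeR p for each gene tested apart from Ttr; red points are choroid plexus list genes, green points ependymal, cilia and dynein genes, orange points meningeal and stromal fibroblast genes, and the dashed line is the largest p called. Points above the line lie almost all on the right (57 higher, 1 lower), and the red points spread far to the right while the green and orange points gather near 0.

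Car12, a carbonic anhydrase on the cell surface that supplies bicarbonate for fluid secretion, ranked first of all genes in this comparison. It measured 33.0, 38.3 and 34.5 CPM in Control 1, NIHHL 2 and Control 3, and 92.5, 75.2, 91.3 and 115 in NIHHL 4, NIHHL 3, Control 2 and NIHHL 1. The 3 poor libraries lay close together, all below the lowest rich one. Its log2 fold change was 1.41 (SE 0.13), with means of 93.5 ± 16.3 CPM (SD, n = 4) and 35.3 ± 2.71 (SD, n = 3).

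The transport list held 31 tested genes of ion, water and solute movement. Of these, 31 had a fold change above 0, against 50.7% of all genes, and 27 had every rich library above every poor one, against 4.85% of all genes. The median log2 fold change was 1.32. Because the classes were cut from a choroid plexus transcript, and the lists were drawn up with earlier results of these data known, such counts describe how far the list went with Ttr and are no separate evidence. Aqp1, the water channel of the apical membrane, was at 0.337, 1.95 and 6.04 CPM in Control 1, NIHHL 2 and Control 3 and at 23.1, 17.6, 31.2 and 37.9 in NIHHL 4, NIHHL 3, Control 2 and NIHHL 1. The step from Control 1 to Control 3 was larger in proportion than the step from Control 3 to NIHHL 3. Kcne2, a potassium channel subunit, and Slc4a5, a sodium bicarbonate carrier, had log2 fold changes of 2.59 and 2.78. Car14, a second membrane carbonic anhydrase (1.37), Slc31a1, the copper importer (1.14), Slc16a8, a lactate carrier (2.60), Slc29a4, a monoamine carrier (0.80), and Slco1a5, an organic anion carrier (2.90), were also above 0 in the log2 fold change, with no class overlap. Aqp1, Kcne2, Slc16a8 and Slco1a5 lay below the count filter level of 0.555 CPM in at least 1 poor library. They passed the filter only with the rich libraries, so their values are description only. At the low end of this list, Atp1b1, a sodium pump subunit, was at 0.0015, Abcg2, an efflux pump, at 0.02 and Slc5a3, the inositol carrier, at 0.06. Why these genes moved little was not tested.

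The list of secreted and carrier proteins had 17 tested genes, with a median log2 fold change of 1.69, and in 15 of them every rich library lay above every poor one (4.85% of all genes). Igfbp2, which binds insulin-like growth factors, stood at 16.1, 22.9 and 25.7 CPM in Control 1, NIHHL 2 and Control 3, and at 53.4, 58.5, 72.6 and 96.1 in NIHHL 4, NIHHL 3, Control 2 and NIHHL 1, a log2 fold change of 1.69. Each rich library lay above each poor one, and Control 2 and NIHHL 1 were highest. Kl, the anti-ageing protein klotho, had a log2 fold change of 2.12, Igf2, a growth factor of the plexus, 1.46, and Rdh5, a retinol dehydrogenase, 2.11. Col8a1, a short-chain collagen, had the highest value of the lists, 3.35, but it lay below the count filter level in Control 1 and passed only with the rich libraries. Cp, ceruloplasmin, a copper ferroxidase that astrocytes also make, was the only choroid plexus gene tested that lay below 0 (-0.02): it measured 13.2, 14.9 and 13.2 CPM in Control 1, NIHHL 2 and Control 3, and 12.8 to 14.0 in the rich libraries, which overlapped with the poor ones.

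The list of junctions, keratins and regulators had 23 tested genes with a median log2 fold change of 1.47, and in 19 every rich library lay above every poor one (4.85% of all genes). Otx2, which specifies and maintains the epithelium, stood at 2.49, 5.29 and 7.83 CPM in Control 1, NIHHL 2 and Control 3, and at 15.7, 11.5, 20.8 and 25.8 in NIHHL 4, NIHHL 3, Control 2 and NIHHL 1. Its classes did not overlap, and its log2 fold change was 1.79. Htr2c, the serotonin receptor long known from this epithelium, was at 41.1, 37.4 and 55.6 CPM in the poor libraries and at 88.7, 71.3, 93.3 and 111 in the rich ones, in that same order, a log2 fold change of 1.02. Hippocampal neurons also make Htr2c. Its poor libraries held a larger share of the rich level than those of Otx2 did, and the reason was not tested. Krt18, a keratin, had a log2 fold change of 1.81, Cd59a, an inhibitor of complement, 1.55, and Prlr, the prolactin receptor, 2.36. Over the 4 lists together 73 of 75 genes were tested, 10 of which passed the count filter only with the rich libraries. Of the 73, 72 had a fold change above 0 (50.7% of all genes), 63 had every rich library above every poor one (4.85%) and 16 were called (0.402%), counts from which, as said, nothing is read because of how the classes were cut.

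The libraries did not fall into 2 even levels. Control 1 was the lowest of the 7 libraries for 61 of the 73 choroid plexus genes, and NIHHL 1 the highest for 62. Within the study's groups the order was as marked: Control 2 was the highest of the 3 Control libraries for 70 of the 73 genes, and NIHHL 2 the lowest of the 4 NIHHL libraries for 69. Control 1 and NIHHL 1 had the lowest and highest Ttr shares. Control 2 was the only rich Control and NIHHL 2 the only poor NIHHL library. These ranks of choroid plexus genes thus follow in large part from the Ttr cut and are no separate evidence. The mean log2 CPM of the 73 genes was 2.56 in Control 1, 3.24 in NIHHL 2 and 3.82 in Control 3, and ran from 4.49 to 5.29 in the rich libraries. Their summed level was 3911 to 4877 CPM in the poor libraries and 6432 to 9887 in the rich ones. With the log2 of the Ttr share as a graded term in place of the 2 classes, edgeR called 148 genes, all higher with more Ttr, of which 43 were among the 58.

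Of the 58 called genes, 42 stood in none of the lists and 16 in the choroid plexus lists. Oca2, a melanosome membrane transporter, measured 0.876, 0.690 and 1.60 CPM in Control 1, NIHHL 2 and Control 3, and 5.13, 6.94, 7.47 and 11.2 in NIHHL 4, NIHHL 3, Control 2 and NIHHL 1. All rich libraries lay above all poor ones, and Oca2 was higher by 2.82 on the log2 scale (SE 0.33; edgeR adjusted p = 0.013). Pon1, a paraoxonase that travels on lipoproteins, had 2, 3 and 7 counts in Control 1, NIHHL 2 and Control 3 and 26, 26, 53 and 57 in NIHHL 4, NIHHL 3, Control 2 and NIHHL 1. It was one of 16 called genes that had fewer than 3 poor libraries at the level of the count filter (0.555 CPM) and so were tested only because the rich libraries were higher, and its values, like those of the others of this kind, are given with no test. Sfrp5, a secreted Wnt antagonist, and Scara5, a ferritin receptor, were also among these 16, with fitted log2 fold changes of 2.04 and 2.36. Genes outside the lists that reached the filter level in all poor libraries and were higher in the rich ones included Col4a4, a basement membrane collagen (1.46), Slc16a12, a creatine carrier (1.25), and Slc37a2, a sugar phosphate carrier (1.28), with edgeR adjusted p of 0.038 to 0.039. Rrh, the photoisomerase peropsin, was picked out after its values were seen because it had the highest fitted fold change, 4.42. It had 0, 0 and 3 counts in Control 1, NIHHL 2 and Control 3 and 12, 19, 37 and 41 in NIHHL 4, NIHHL 3, Control 2 and NIHHL 1, so its fitted fold depends on the prior count.

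Some called genes changed by small amounts: 16 of the 58 had a log2 fold change between -1 and 1. Sgk1, a kinase induced by corticosteroids, measured 104, 96.6 and 118 CPM in Control 1, NIHHL 2 and Control 3 and 179, 159, 165 and 159 in NIHHL 4, NIHHL 3, Control 2 and NIHHL 1. Its rich libraries were within a narrow range and clear of the poor ones, and the gene was higher by 0.64 on the log2 scale (SE 0.08; edgeR adjusted p = 0.019). Its highest level was in NIHHL 4, the rich library with the lowest Ttr share. Ephx1, the microsomal epoxide hydrolase, was higher by 0.71 (SE 0.11; edgeR adjusted p = 0.038) and Lgals3bp, a secreted glycoprotein that binds galectins, by 1.02 (SE 0.15; edgeR adjusted p = 0.036). Over the 58, Control 1 was the lowest library for 39 genes, NIHHL 1 or Control 2 the highest for 54, and Control 3 the highest poor library for 46. The 58 were picked by the classes, so these ranks are description only.

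Necab1, a neuronal calcium-binding protein, was the only called gene that was lower in the rich libraries. It measured 76.1, 75.5 and 99.3 CPM in Control 1, NIHHL 2 and Control 3, and 60.6, 55.6, 53.5 and 57.3 in NIHHL 4, NIHHL 3, Control 2 and NIHHL 1. The rich libraries lay within a few CPM of each other and below the poor ones (log2 fold change -0.56, SE 0.10; edgeR adjusted p = 0.045). The genes with the next smallest p in this direction did not pass: Rab43, a small GTPase, was at -0.72 (edgeR adjusted p = 0.056), Fn1, fibronectin, at -0.41 (0.072), and Mef2c, a neuronal transcription factor, at -0.50 (0.095), by the same test.

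Markers of the cells around the choroid plexus epithelium included no called gene, and with 0.402% of all genes called, lists of this size could have none by that share alone. Of 31 genes of ependymal cells and motile cilia, 0 were called, 20 had a fold change above 0 (50.7% of all genes did) and 5 had every rich library above every poor one (4.85% of all genes did), with a median log2 fold change of 0.13. Foxj1, the master factor of motile cilia, measured 7.42, 17.3 and 15.1 CPM in Control 1, NIHHL 2 and Control 3 and 17.1, 17.1, 11.5 and 19.7 in NIHHL 4, NIHHL 3, Control 2 and NIHHL 1. NIHHL 2, a poor library, was above 3 of the 4 rich ones. Within the list, Drc7, a subunit of the ciliary dynein regulatory complex, stood apart with 5.19, 8.85 and 11.8 CPM in the poor libraries and 19.2, 15.4, 21.1 and 30.3 in the rich ones (log2 fold change 1.3, SE 0.29; edgeR adjusted p = 0.14), and Tekt1, a tektin of the ciliary doublets, had a value of 1.07 (edgeR adjusted p = 0.18). Neither passed the test. The list's median depended on single poor libraries: it was 0.51 without NIHHL 2 and -0.07 without Control 1.

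The 15 heavy chains of axonemal dynein, the motors of motile cilia, had a median log2 fold change of -0.20, with 3 above 0 and 0 called. For 13 of the 15, Control 2, a rich library, was the lowest of all 7 libraries. The median was 0.02 without Control 2, so the direction of this list rested on that library. Dnah11, the heavy chain named in the study's title, measured 3.44, 6.44 and 3.54 CPM in Control 1, NIHHL 2 and Control 3 and 4.25, 3.41, 2.48 and 6.95 in NIHHL 4, NIHHL 3, Control 2 and NIHHL 1. Both classes spanned nearly the same range (log2 fold change -0.07, SE 0.35; edgeR adjusted p = 0.99).

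**Figure D3:**
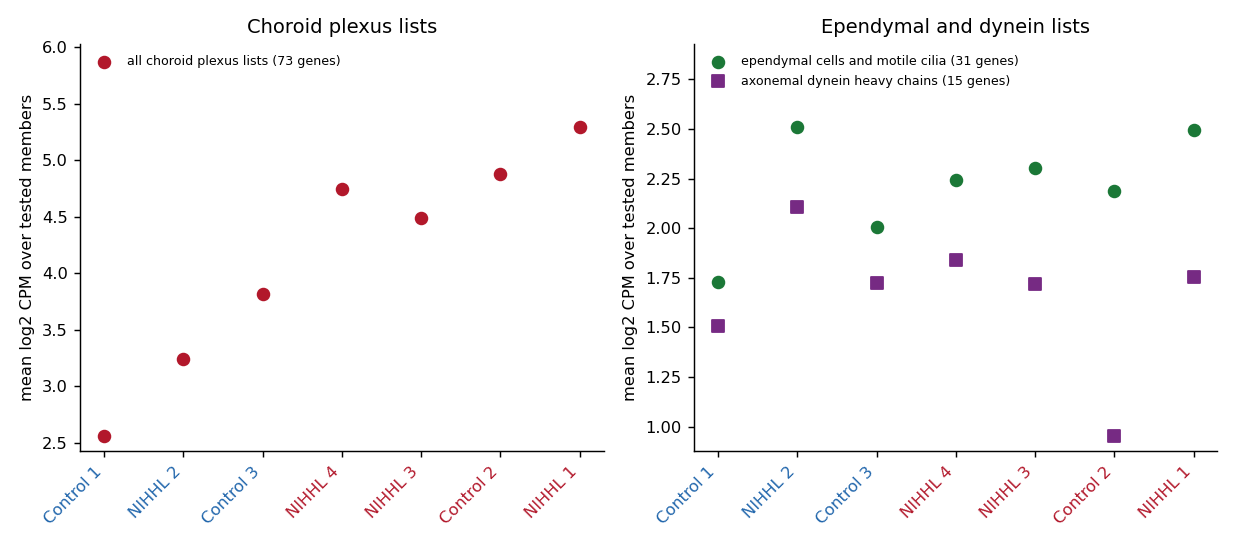
Mean log2 CPM over the tested genes of the choroid plexus lists (left, 73 genes) and of the ependymal and dynein heavy chain lists (right, green circles for 31 genes and purple squares for 15 genes), 1 point per library, ordered by Ttr share. Names of poor libraries are in blue and of rich ones in red; the choroid plexus mean is 2.56 to 3.82 in the poor and 4.49 to 5.29 in the rich libraries, with NIHHL 4 above NIHHL 3, while both other lists overlap between the classes and the dynein mean is lowest in Control 2.

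Stroma, vessels and blood could come with the same tissue. Meningeal and stromal fibroblast genes (25 tested) had a median log2 fold change of -0.20, with 9 above 0 and 0 called, and their summed level was 544 to 833 CPM in the poor and 511 to 822 in the rich libraries. Slc22a6, an organic anion transporter of these fibroblasts, was lower in every rich library than in any poor one (-0.90; edgeR adjusted p = 0.12), whereas Bmp6, a secreted signal, lay above in every rich library (0.70; edgeR adjusted p = 0.14). Border-associated macrophage genes (14 of 17 tested, summed level 693 to 1435 CPM in poor and 1338 to 1632 in rich libraries) had a median of 0.05, endothelial genes (19 of 20 tested) 0.02, and mural cell genes (13 tested) -0.04. Plvap, a protein of the fenestrated capillaries that the choroid plexus has, measured 3.37, 3.45 and 4.72 CPM in Control 1, NIHHL 2 and Control 3 and 5.01, 5.51, 5.66 and 4.83 in NIHHL 4, NIHHL 3, Control 2 and NIHHL 1. The rich libraries lay above the poor ones by a small margin, and the difference of 0.44 did not pass (edgeR adjusted p = 0.57). The 5 erythrocyte genes had a median of 0.26 with wide overlap, their summed level running from 181.5 to 445 CPM in poor and from 209 to 628 in rich libraries. In none of these lists was a gene called.

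Marker lists of the hippocampus itself had medians near 0. Lists for dentate granule cells (-0.02), CA1 pyramidal cells (0.02), CA2 and CA3 pyramidal cells (0.15), interneurons (-0.04), astrocytes (-0.04), oligodendrocytes (0.08), their precursors (-0.01) and microglia (-0.07) had median log2 fold changes between -0.07 and 0.15, with 0 genes called. Among neighbouring regions that a dissection can include, the median was 0.03 for thalamus and habenula, -0.02 for striatum and septum, and -0.17 for neocortex and subiculum, also with 0 genes called. Cajal-Retzius cell genes (6 of 7 tested) had a median of 0.30, and 0.47 without NIHHL 2. Interferon response genes (23 of 24 tested) had a median of 0.03, inflammation and complement genes (17 of 22 tested) 0.05, and neuronal activity genes (25 tested) -0.10. Nuclear genes of oxidative phosphorylation had a median of 0.12, and 32 of 32 lay above 0, though none was called and none separated the classes. The rich Control 2 was the highest of the 7 libraries for 32 of these genes, and the rich NIHHL 4 the lowest for 29. Cytosolic ribosomal protein genes, many of them short, had a median of 0.06, with 31 of 36 above 0. For 36 of 36, Control 2 was the highest library and NIHHL 4 the lowest, so rich libraries stood at both extremes. The part that the libraries' length dependence had in these small shifts was not tested.

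**Figure D4:**
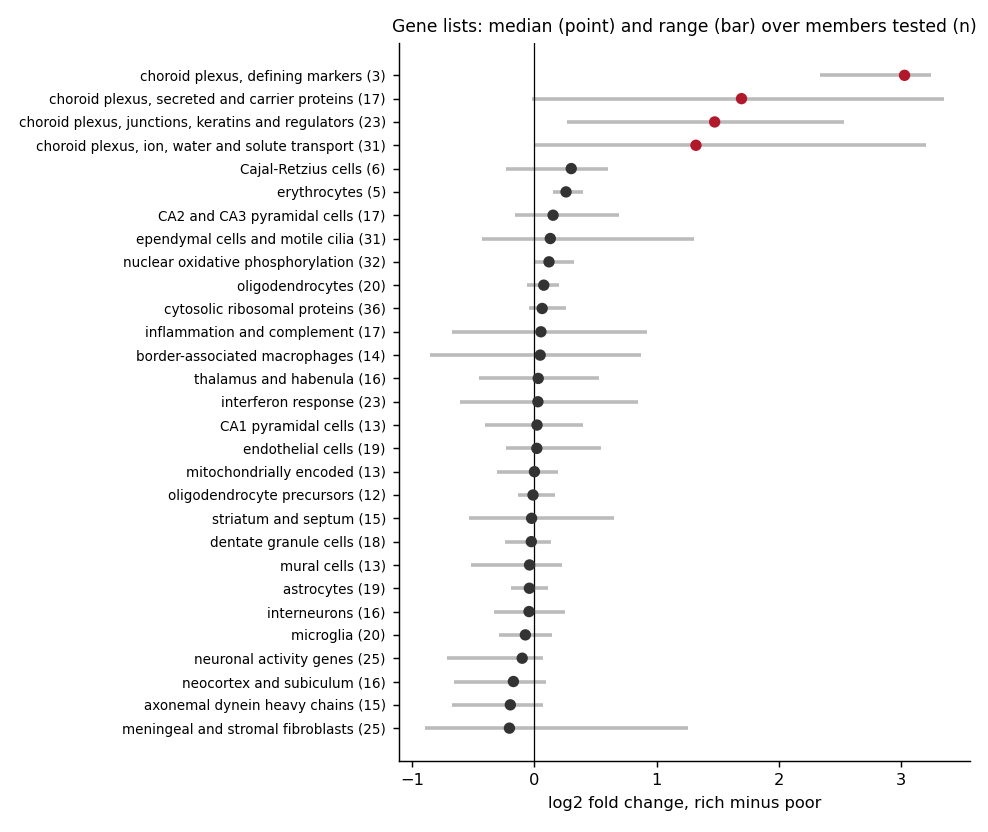
Median (point) and range (grey bar) of the log2 fold change, rich minus poor, over the tested genes of each list, with the number of genes in brackets. The 4 choroid plexus lists (red) have medians of 1.32 to 3.02, and all other lists (dark points) lie between -0.20 and 0.30.

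The classes bear on the study's own contrast, because more NIHHL than Control libraries were rich. With the group as the only term, the 73 choroid plexus genes had a median log2 fold change, NIHHL minus Control, of 0.55, and 69 of them lay above 0 (49.9% of all genes did). With the Ttr class as a second term the median was -0.02 and 32 of the 73 lay above 0 (50.5% of all genes did). Part of that shift follows from the way the classes were cut. By edgeR's quasi-likelihood test 0 genes (0%) differed between NIHHL and Control at an adjusted p of 0.05 in either fit, and 653 with the class and 523 without it had an unadjusted p under 0.05. limma-voom also called 0 genes with the class, while DESeq2 called 11. Hsd3b1 had the smallest p among these, with 0 counts in each Control library and 81, 26, 41 and 9 in NIHHL 1 to 4. Akr1cl also had 0 counts in each Control library, and Gm28635 had 29 counts in NIHHL 2 and 0 in all others. DESeq2 was run without the count filter used for edgeR. Hsd3b1, Akr1cl and Gm28635 thus entered only through NIHHL libraries, and their calls are description only. mt-Atp8 had the next smallest p after Hsd3b1, and the cilia genes Cdhr3, Hydin, Dnah6 and Dnah10 were among the rest.

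With the class in the model, the median difference of cilia genes between the study's groups was as large or larger. For the ependymal list the median NIHHL minus Control was 0.45 with the group alone and 0.47 with the class. Genes of this list higher in NIHHL at an unadjusted edgeR p under 0.05 numbered 13 and 14 of 31, where 2.32% and 2.60% of all genes were. Genes of a list can vary together across libraries and are not independent replicates, so such counts are description only. For the dynein heavy chains the median went from 0.39 to 0.63, and the genes at that p from 5 to 10 of 15. Control 2, the only rich Control library, was the lowest of the 7 libraries for 13 of these 15 genes. Their mean log2 CPM was 0.95 in Control 2, 1.51 in Control 1, 1.73 in Control 3 and 1.72 to 2.11 in the NIHHL libraries. The dynein values with the class thus lean on 1 library. The ependymal median was 0.15 without NIHHL 2, with 4 of 31 genes at that p, and the dynein median was 0.93 without it; edgeR called no gene of either list, and DESeq2 called Hydin of the first and Dnah6 and Dnah10 of the second. Hydin, a protein of the ciliary central pair, had the smallest p. It measured 5.87, 3.69 and 6.51 CPM in Control 1 to 3 and 7.96, 11.8, 7.27 and 7.67 in NIHHL 1 to 4. Each NIHHL library lay above each Control library, with the rich Control 2 lowest and the poor NIHHL 2 highest (log2 fold change 0.98 with the class, SE 0.14; edgeR adjusted p = 0.26).

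Cdhr3, a cadherin of ciliated cells, showed the same order of extremes, with 5.33, 2.52 and 5.38 CPM in Control 1 to 3 and 6.12, 10.8, 7.43 and 5.66 in NIHHL 1 to 4 (1.17, SE 0.17; edgeR adjusted p = 0.26). Dnah6 and Dnah10, inner arm heavy chains, had values of 0.93 (SE 0.16) and 1.16 (SE 0.18) with edgeR adjusted p of 0.43 and 0.34. Dnah11 was 0.75 (SE 0.26) with the group alone and 0.93 (SE 0.26) with the class, with edgeR adjusted p of 0.996 and 0.940. mt-Atp8, an ATP synthase subunit that the mitochondrial genome encodes, was the lower gene with the smallest p, with 466, 464 and 526 CPM in Control 1 to 3 and 355, 334, 280 and 334 in NIHHL 1 to 4. Its groups did not overlap and its value hardly depended on the class: -0.57 without it and -0.54 with it (edgeR adjusted p = 0.47 and 0.49).

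**Figure D5:**
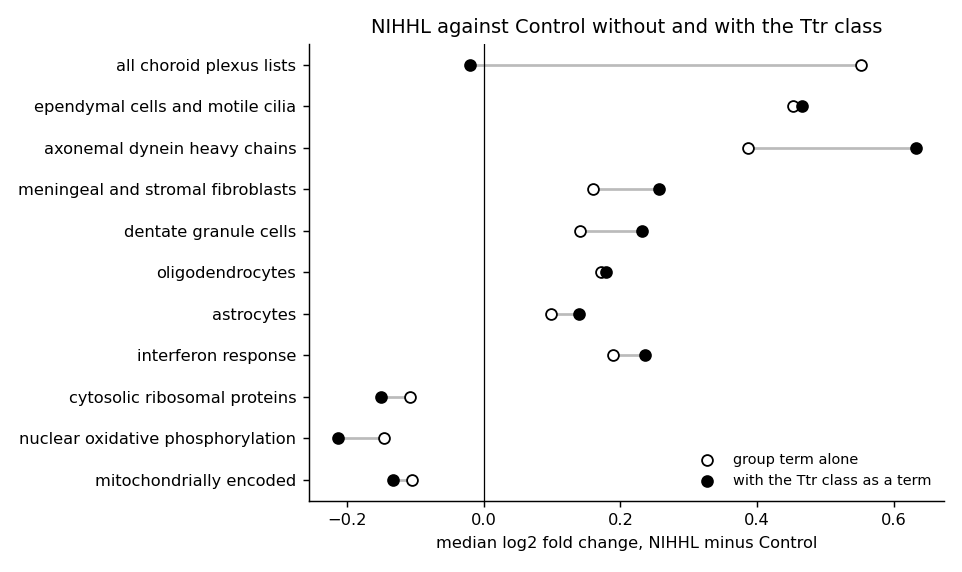
Median log2 fold change, NIHHL minus Control, over the genes of 11 lists, from the fit with the group alone (open circles) and from the fit that also held the Ttr class (filled circles). The choroid plexus median moves from 0.55 to -0.02, the dynein median from 0.39 to 0.63, and the ependymal median stays near 0.46.

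Whether the difference between rich and poor libraries itself differed between NIHHL and Control was tested as an interaction, with 1 rich Control and 1 poor NIHHL library, each assumed to vary like the others. edgeR called 3 of 14416 genes (0.0208%), none of them in a choroid plexus list, and with such lone libraries a call does not show that the groups differ. Tmem254, a membrane protein, had 35.8 to 45.2 CPM in 6 libraries and 12 in NIHHL 2, an interaction of 1.59 on the log2 scale (SE 0.17; edgeR adjusted p = 0.031). Commd1b, which shares its name with Commd1, had 0 counts in Control 2 and 5.75 to 12.3 CPM in the others, and Lenep, a lens epithelial protein, had 0 counts after rounding in Control 2 and NIHHL 2 and 1.32 to 1.55 CPM in the others. Each of these calls thus turned on 1 or 2 libraries in which the gene was low or at 0. Whether the counting divided reads between Commd1b and Commd1 was not tested. The interaction of Folr1 was -0.03 (SE 1.38; edgeR adjusted p = 0.998), an error too large to say whether the choroid plexus difference was of one size in both groups.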

How the data were processed

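Poly(A) RNA of 7 hippocampal libraries was sequenced on an Illumina NovaSeq, per the labels' protocols. The authors deposited 1 table of expected counts (90.7% of its values were whole numbers) for 21965 genes, of which 90 had no symbol. Bowtie2 2.2.8, HISAT2, StringTie 1.3.1 and DESeq2 are named, per the submitters' processing notes. The genome build and the counting step were not given in the sources used here.

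Expected counts were rounded and tested with edgeR 4.0.16 in R 4.3.3 (quasi-likelihood, robust, TMM scaling). A gene entered if filterByExpr with the class as group kept it, at a minimum count of 10: 14417 genes with 99.96% of all counts did, 14416 of them apart from Ttr. Called means a Benjamini-Hochberg adjusted p under 0.05. The fits were class alone, class with group, and their interaction. The Ttr class was the share of Ttr above or below 0.2%. Alternatives included DESeq2 1.42.0, limma 3.58.1 (voom), each library left out, a transcript length offset from GENCODE mouse release M21, and a graded Ttr term. No pair of libraries was identical. The procedure was tested on simulated libraries that shared a common mean profile apart from genes changed on purpose. They held no length dependence, so that test does not cover such differences between the real libraries.

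The members, gene lists and tests were chosen with earlier results of these data known. Named genes are the 4 given markers, all choroid plexus list genes, the genes with the smallest p in each direction (at most 12 called, or 6 where fewer than 6 were called), the called genes of each list or the 2 with the smallest p, the 10 called genes outside the lists with the smallest p in each direction, Dnah11, and the 6 genes with the smallest p for NIHHL against Control with the class. Further markers shown were listed as cell type markers.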

Additional observations from a re-analysis of the deposited data

Results flagged for a closer look

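Of 94 genes checked among the 4 NIHHL libraries, 6 had NIHHL 2, the only poor library of that group, far from the other 3 by Dixon's criterion. Chance meets that criterion in about 1 of 20 groups. That rate does not hold here, because many of the 94 were named for a small p between the classes or in the interaction. Such a choice favours genes in which NIHHL 2 stands apart, so the count of 6 is description only. In log2 CPM, Dnah5, an outer arm dynein heavy chain, was 3.69 in NIHHL 2 against 3.06 to 3.15 in the others, and Lyve1, a marker of border macrophages, was 0.39 against -0.41 to -0.29. Cldn11, a myelin claudin, was 7.22 against 7.49 to 7.55, and Lgals3, a galectin of activated phagocytes, was 0.73 against 1.27 to 1.37. Tmem254 was 3.60 against 5.41 to 5.50, and Lenep was -3.26, where it had 0 counts after rounding, against 0.51 to 0.60.

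Tmem254, Lenep and Commd1b were flagged by edgeR's test of the interaction between class and group. That test rests on 1 rich Control and 1 poor NIHHL library, so it does not show a difference between the groups. For Tmem254 the flag came from a lower level in NIHHL 2, where it still had 209 counts. For Lenep and Commd1b it came from 0 counts in Control 2, and for Lenep also from 0 counts after rounding in NIHHL 2. On the log2 scale the interaction was 1.59 for Tmem254, 15.49 for Lenep and 11.33 for Commd1b. The values of Lenep and Commd1b come from libraries at 0 counts, depend on the prior count and are no bounds.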

How the results depend on the processing

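No gene named by its difference between rich and poor libraries turned its direction under the alternatives run. The count of genes called between rich and poor libraries was 58, 55 with DESeq2 size factors, 68 with no filter, 76 with the length offset and 81 without both Control 3 and NIHHL 4, the libraries nearest the threshold. It was 210 by DESeq2, 7 by limma-voom, 20 without both Control 2 and NIHHL 4, 8 with the group as a term, and 148 with graded Ttr. Leaving out 1 library gave 0 to 101. The choroid plexus median lay between 1.28 and 1.72 over the fits that used the classes. For NIHHL against Control with the class the count was 0, but 11 by DESeq2, 1 without both Control 2 and NIHHL 4, and 0 to 2 with 1 library left out. For the interaction it was 3, but 1 by limma-voom, 19 without both Control 3 and NIHHL 4, and 0 to 8 with 1 library left out. The cause of these differences was not tested. The list medians for NIHHL against Control under each alternative were added after seeing the data. Replicate numbers shared by Control and NIHHL did not pair the libraries: the correlations of their deviations were -0.54, -0.45 and -0.01. With the replicate number as a block, 31 genes were called between rich and poor libraries (18 of the 58) and 7 between NIHHL and Control. The block terms leave almost no libraries from which to estimate the spread, and only NIHHL had a replicate 4. Both counts with the block are therefore description only. For the interaction, the block, leaving out Control 2 or NIHHL 2, and leaving out both Control 2 and NIHHL 4 could not be fitted. DESeq2 gave no adjusted p for 2128 genes between rich and poor libraries. Genes with few counts in the poor libraries, such as Pon1 and Rrh, have folds that this depth leaves imprecise.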
